A study of Sus scrofa with 17 samples.

Results

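The genes described here encode 10 enzymes around glycolysis and glycogen breakdown in pig skeletal muscle: PYGM, GPI, PFKM, FBP2, ALDOA, TPI1, PGAM2, ENO3, PKM and LDHA. FBP2 is the exception among them, as it opposes the PFKM step of glycolysis. The genes were found by matching these symbols to Ensembl gene identifiers of the Sscrofa11.1 assembly. All 10 had a row among the 31908 genes of the count table, and all 10 were among the 14203 genes with enough reads to be tested.

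The study asked how an alga added to the feed, with or without an enzyme that opens its cell walls, is reflected in the RNA of the longissimus muscle of weaned piglets. Male Large White × Duroc piglets entered the trial at 28 days of age, were adapted for 5 days and ate their diet for 2 weeks in individual metabolic cages. The control diet (6 piglets) held no alga. The UL diet (6 piglets) held 7% of the green alga Ulva lactuca, and the ULU diet (5 piglets) held the same 7% with 0.01% of ulvan lyase, a carbohydrase that cuts ulvan, a polysaccharide of the algal cell wall. These numbers are of the piglets with a library analysed here, not of all piglets fed. The paper took RNA from 6 piglets of each diet, picked at random, and 5 ULU libraries were analysed here. Each library came from 1 piglet and was sequenced as single reads of 75 nt. The reads counted on genes numbered 16335304 to 23433672 per library in control, 16470286 to 20896796 in UL and 16137365 to 26546810 in ULU. Levels are given as CPM, the reads of a gene per 1000000 reads of its library after TMM scaling, and levels of different genes are compared only per kb of exon. Neither the labels nor the header of the counts names a sequencing batch.

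Muscle stores glucose as glycogen, from which glycogen phosphorylase releases glucose 1-phosphate when the muscle works. Glycolysis converts the resulting hexose phosphates to pyruvate, and lactate dehydrogenase converts pyruvate to lactate, which regenerates the NAD+ that glycolysis needs. Fast, glycolytic fibres, which prevail in the pig longissimus, hold large amounts of these enzymes and use muscle forms of several of them that are encoded by genes of their own.

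The label of the tissue was checked against 8 skeletal muscle markers, of which 6 had a row and all 6 were detected in every library. No row was matched to MB or TTN. ACTA1, the actin of the muscle thin filament, was the most abundant of them at a mean of 21030.1 CPM per kb. The 10 enzyme genes took between 4.34% and 6.62% of all counted reads in control libraries (median 5.76%), between 4.90% and 6.86% in UL (median 5.69%) and between 6.31% and 8.51% in ULU (median 7.17%). The share was thus highest in ULU, where the lowest library was above the median of either other diet. LDHA alone took a mean of 1.996% of the reads and ENO3 1.33%.

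A few libraries stood apart for these genes and bear on the results. ULU piglet 43 had the highest CPM of all 17 libraries for 10 of the 10 genes, and its TMM factor of 0.765 was the lowest of all. Control piglet 22 had the lowest CPM for 8 of the 10 genes and the highest TMM factor (1.21). Control piglet 26 had the lowest CPM for the other 2, PGAM2 and FBP2, and its TMM factor was 1.18. CPM is divided by the TMM factor, so a low factor raises the CPM of a library and a high factor lowers it. As an unscaled share of counted reads, TPI1, ALDOA and FBP2 were highest in a library other than that of ULU piglet 43.

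Reads that overlap more than 1 gene are not counted under the default settings, so shared exons lower the count of a gene. LDHA, PKM, PYGM and FBP2 share no exonic base with another gene. ENO3 shares 3.05% of its exonic bases with PFN1, PFKM 14.995% with 2 genes on the opposite strand and PGAM2 16.3% with DBNL. TPI1 shares 40.9% with SPSB2 on the opposite strand, and GPI shares 64.7% with GARRE1 on the same strand. Of the 3265 exonic bases of ALDOA (ENSSSCG00000032556), 2644 (81.0%) are also exons of an unnamed gene on the same strand, ENSSSCG00000046707, which had 0 reads in every library. The ALDOA row held between 132 and 460 reads per library from the other 621 bases.

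The levels are therefore given per kb of unshared exon, a length chosen after seeing the data. ENO3, the muscle enolase, had the highest mean over the 17 libraries (4974 CPM per kb), followed by LDHA (4626 CPM per kb). ENO3 was the higher of this pair in 10 of 17 libraries, so that their order was not resolved. LDHA lay 2.05-fold above TPI1 (2256 CPM per kb), and was the higher in all 17 libraries although their ranges overlapped. PGAM2 followed at 1467 CPM per kb, PYGM at 1243 CPM per kb and GPI at 1018 CPM per kb. PGAM2 was above PYGM in 13 of 17 libraries and PYGM above GPI in 16 of 17. PKM (580.6 CPM per kb), PFKM (379 CPM per kb) and FBP2 (199.9 CPM per kb) came next, each below the gene before it in all 17 libraries. ALDOA was the lowest, at 19.9 CPM per kb on 621 bases.

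The places of TPI1, PGAM2 and GPI depend on the length used. Over all exonic bases, TPI1 had 1333, PGAM2 1228 and GPI 359.7 CPM per kb, so that TPI1 and PGAM2 lay beside PYGM, and GPI lay below PKM. LDHA, PYGM, PKM and FBP2 share no exon, so their levels are the same by either length. These levels still rest on the annotated exon length, which is 14076 bases for PKM, against 4337 for LDHA and 7229 for PYGM. How ALDOA ranks cannot be told from so few bases.

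The comparison of ULU with control asks what the alga with the lyase does relative to a diet without either. Of the 10 enzyme genes, 3 rose in ULU with an adjusted p below 0.05 in the quasi-likelihood test of edgeR, adjusted after Benjamini and Hochberg: PYGM, PFKM and GPI, each by 1.63-fold to 1.70-fold. Across all 14203 genes tested, 2.98% were called in this comparison, 1.99% higher and 0.993% lower. None of the 10 reached the log2 fold change of 1 that the study required of a differentially expressed gene (DEG), which 0.415% of all genes did with an adjusted p below 0.05. DESeq2 also gave 0 DEGs among the 10, and at an unadjusted p below 0.05 edgeR gave 8 of the 10, all higher, against 18.9% of all genes in either direction and 10.1% higher. The log2 fold change was above 0 for 10 of 10 enzyme genes, against 47.0% of all genes, and its median was 0.64 for the enzyme genes and −0.03 for all genes. The 10 genes varied together among the piglets, so counts over them, here and in the other comparisons, are not counts of independent observations. Because each library holds the RNA of a whole piece of muscle, more fibres of a type and more RNA per fibre cannot be told apart. The calls depended on single libraries: without ULU piglet 43, and likewise without control piglet 23, 0 of the 10 genes were called by edgeR. The share of all genes called fell as well, to 1.02% and 1.16%. In these 2 fits, 6 and 8 of the 10 had an unadjusted p below 0.05, and the median log2 fold change was 0.49 and 0.65. The 18.9% of all genes given above is from the fit of all 17 libraries, so these counts have no share of their own beside them. Fits without a UL piglet keep every library of these 2 diets, and each of them called PYGM, PFKM and GPI. They bear little on how the calls depend on single piglets, although they are counted among the 17 fits given below. DESeq2 was not run without single libraries.

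**Figure D1:**
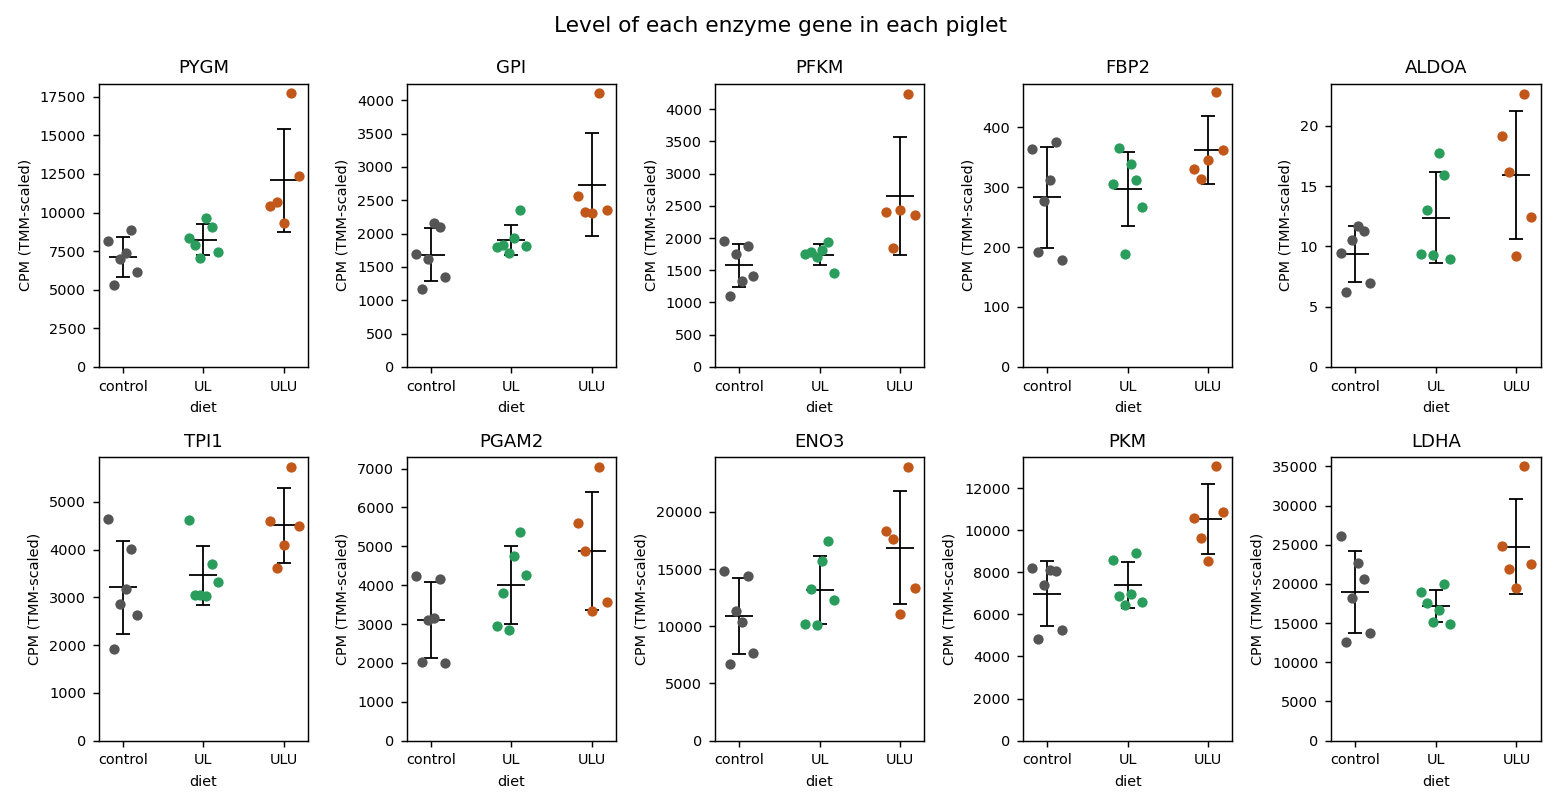
Level of each enzyme gene in each piglet, in TMM-scaled CPM on axes that start at 0, with 1 point per library, grouped by diet. Black bars give the mean and SD of each diet (6 control, 6 UL and 5 ULU piglets). The highest point in every panel is ULU piglet 43.

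PYGM, the muscle glycogen phosphorylase, opens the pathway by splitting glucose 1-phosphate from glycogen. The gene (ENSSSCG00000013022) lies on chromosome 2 from 7391064 to 7421261, and its annotated exons span 7229 bases. PYGM ranged from 5273 to 8849 CPM in control with a median of 7195, and from 7039 to 9648 CPM in UL with a median of 8111. The ULU piglets 40 to 44 had 10392, 10672, 9317, 17725 and 12373 CPM. All 5 ULU piglets lay above the highest control piglet, and 4 of 5 lay above the highest UL piglet. Relative to control, PYGM rose in ULU by a log2 fold change of 0.76 (SE 0.17, edgeR adjusted p = 0.0228), the smallest adjusted p of the 10 genes. Without ULU piglet 43 the log2 fold change was 0.58 with an adjusted p of 0.0552, and without control piglet 23 it was 0.76 with an adjusted p of 0.0504. In the 15 other fits that left out 1 library, the call was kept, but these include the fits without a UL piglet.

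GPI, glucose-6-phosphate isomerase, converts glucose 6-phosphate to fructose 6-phosphate. Its gene (ENSSSCG00000002873) is on chromosome 6 from 43933759 to 44069330. GPI ranged from 1165 to 2165 CPM in control with a median of 1652, and from 1711 to 2349.7 CPM in UL with a median of 1819.7. In ULU piglets 40 to 44 the level of GPI was 2567, 2322, 2314, 4102 and 2355 CPM. Every ULU piglet was above every control piglet, but 4 of the 5 were packed between 2314 and 2567 CPM and only piglet 43 stood far above them. GPI rose in ULU relative to control by a log2 fold change of 0.70 (SE 0.18, edgeR adjusted p = 0.0391). This call was lost in 7 of 17 fits without 1 library, each of the 7 without a control or ULU piglet. Leaving out ULU piglet 43 gave a log2 fold change of 0.51 (adjusted p = 0.104), and the other 6 fits, without control piglets 21, 22, 23 or 26 or ULU piglets 40 or 41, gave 0.62 to 0.76 with adjusted p-values from 0.0511 to 0.0789.

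PFKM, the muscle form of phosphofructokinase, catalyses the committed step, the phosphorylation of fructose 6-phosphate to fructose 1,6-bisphosphate. It is encoded on chromosome 5 from 78475540 to 78526995 (ENSSSCG00000021129). PFKM ranged from 1106 to 1949.8 CPM in control with a median of 1584, and from 1459.6 to 1940.5 CPM in UL with a median of 1762. The level of PFKM in ULU piglets 40 to 44 was 2404, 1841, 2429, 4239 and 2357 CPM. In 4 of 5 ULU piglets PFKM was above the highest control and the highest UL piglet, whereas piglet 41 lay within the range of both diets. PFKM rose in ULU relative to control by a log2 fold change of 0.75 (SE 0.18, edgeR adjusted p = 0.0353). The call was lost in 6 of 17 fits, each of the 6 without a control or ULU piglet. Without ULU piglet 43 the log2 fold change was 0.52 (adjusted p = 0.0895), and without control piglets 22, 23, 24 or 26 or ULU piglet 40 it was 0.68 to 0.79 with adjusted p-values from 0.0551 to 0.0748.

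FBP2, the muscle fructose-1,6-bisphosphatase, removes the phosphate that PFKM adds and so works in the opposite direction. The gene (ENSSSCG00000010947) lies on chromosome 10 from 27631496 to 27665305. FBP2 ranged from 178 to 376 CPM in control with a median of 294, and from 189 to 366 CPM in UL with a median of 309. The 5 ULU values of FBP2 were 330.3, 314, 345, 459 and 363 CPM for piglets 40 to 44. All but piglet 43, which exceeded the highest control, lay in the upper part of the control range. With a log2 fold change of 0.36 (SE 0.19, edgeR adjusted p = 0.334), FBP2 had the smallest difference of the 10 genes between ULU and control.

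ALDOA, aldolase A, splits fructose 1,6-bisphosphate into 2 triose phosphates. Its gene is on chromosome 3 from 18234787 to 18260256. On the bases that are not shared with the overlapping gene, ALDOA ranged from 6.22 to 11.7 CPM in control with a median of 10.02, and from 8.96 to 17.7 CPM in UL with a median of 11.2. ULU piglets 40 to 44 had ALDOA at 19.2, 16.2, 9.23, 22.7 and 12.4 CPM. In 4 of 5 ULU piglets ALDOA exceeded the highest control, and piglet 42 was below the control median. The log2 fold change between ULU and control, 0.77 (SE 0.24), was the largest of the 10 but missed the threshold (edgeR adjusted p = 0.0827). It was 0.91 with an adjusted p of 0.0418 without ULU piglet 42 and 0.61 with an adjusted p of 0.2204 without ULU piglet 43. The other 15 fits without 1 library did not call ALDOA either.

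TPI1, triosephosphate isomerase, interconverts the triose phosphates that aldolase makes. The gene (ENSSSCG00000000685) lies on chromosome 5 from 63837506 to 63843137. TPI1 ranged from 1913 to 4637 CPM in control with a median of 3024.5, and from 3031 to 4621 CPM in UL with a median of 3185. The 5 ULU piglets had TPI1 at 4607, 3615, 4104, 5738 and 4486 CPM. All 5 were above the control median, but 4 of them lay within the control range. The log2 fold change of TPI1 was 0.49 (SE 0.19, edgeR adjusted p = 0.162).

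PGAM2, the muscle phosphoglycerate mutase, moves a phosphate between carbons of phosphoglycerate. Its gene (ENSSSCG00000016720) is on chromosome 18 from 48693882 to 48713862. PGAM2 ranged from 2002 to 4246 CPM in control with a median of 3124, and from 2850.1 to 5373 CPM in UL with a median of 4036. For ULU piglets 40 to 44, PGAM2 was at 5609, 4869, 3330.3, 7038 and 3559 CPM. The ULU piglets split, with 40, 41 and 43 above the highest control and 42 and 44 near the control median. The log2 fold change of PGAM2 was 0.65 (SE 0.24, edgeR adjusted p = 0.135).

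ENO3, the muscle enolase, makes phosphoenolpyruvate. It is encoded on chromosome 12 from 51954614 to 51963223 (ENSSSCG00000017904). ENO3 ranged from 6663 to 14785 CPM in control with a median of 10881, and from 10139 to 17485 CPM in UL with a median of 12785. In ULU, ENO3 was at 18326, 17649.5, 11077, 23898 and 13369 CPM in piglets 40 to 44. The same piglets as for PGAM2, 40, 41 and 43, were above the highest control. ENO3 had a log2 fold change of 0.63 (SE 0.23, edgeR adjusted p = 0.130).

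PKM, pyruvate kinase of muscle, transfers the phosphate of phosphoenolpyruvate to ADP and releases pyruvate. The gene (ENSSSCG00000001930) lies on chromosome 7 from 60971823 to 61033803. PKM ranged from 4816 to 8228 CPM in control with a median of 7744, and from 6433 to 8928 CPM in UL with a median of 6914. ULU piglets 40 to 44 had PKM at 10567, 9647, 8535, 13049 and 10843 CPM. PKM was thus the other gene, beside PYGM and GPI, for which the ULU and control piglets did not overlap; such a separation upward was seen for 3 of the 10 genes and for 2.30% of all genes tested. Its log2 fold change of 0.59 (SE 0.16) missed the threshold by little (edgeR adjusted p = 0.0547). In 14 of the 17 fits without 1 library PKM was not called, with 0.50 and an adjusted p of 0.130 without ULU piglet 43, nor was it by edgeR on 2 diets (adjusted p = 0.103). It was called without control piglet 21 (0.64, adjusted p = 0.0482), control piglet 25 (0.64, adjusted p = 0.0385) or ULU piglet 42 (0.66, adjusted p = 0.0449), and in the fit without genes of the mitochondrial chromosome.

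LDHA, the lactate dehydrogenase subunit that prevails in fast muscle, reduces pyruvate to lactate. Its gene (ENSSSCG00000013366) is on chromosome 2 from 40812453 to 40826715. LDHA ranged from 12610.0 to 26112 CPM in control with a median of 19415, and from 14936 to 20010.2 CPM in UL with a median of 17122. The ULU piglets had LDHA at 24796, 21857, 19536.5, 35024 and 22533 CPM. Only piglet 43 exceeded the highest control, although all 5 were above the control median. LDHA had a log2 fold change of 0.38 (SE 0.19, edgeR adjusted p = 0.285), which was 0.22 without ULU piglet 43. Together with FBP2 it was one of the 2 genes that did not reach an unadjusted p below 0.05.

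**Figure D2:**
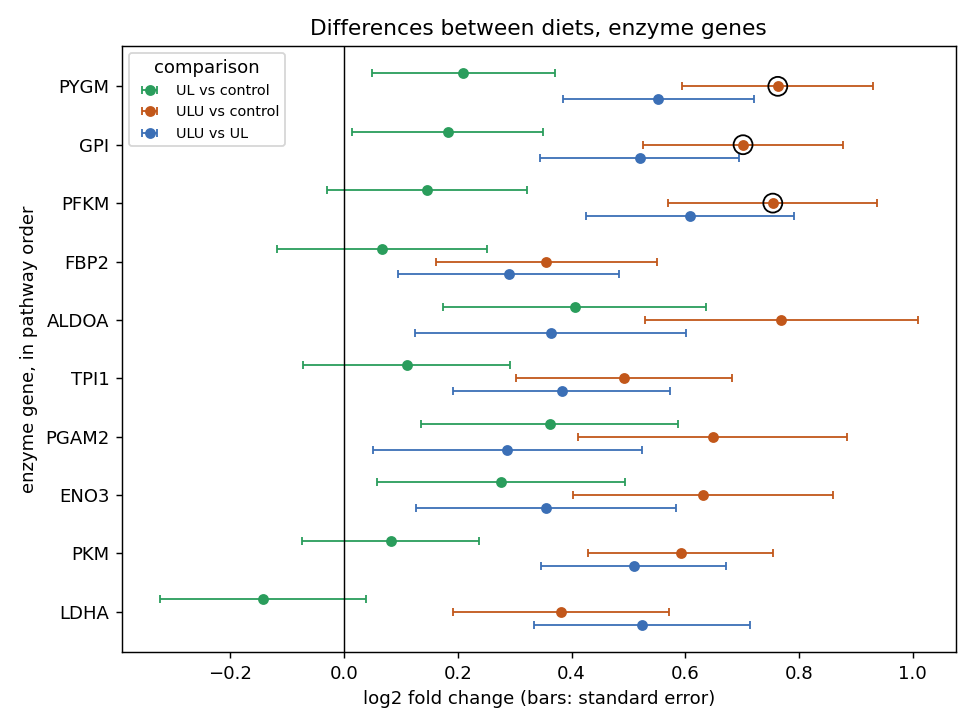
Log2 fold change of each enzyme gene in the comparisons of the 3 diets (points) with its standard error (bars), with genes in pathway order from top to bottom. Black circles mark an edgeR adjusted p below 0.05, which 3 genes had in ULU vs control and none in the other comparisons; LDHA in UL vs control is the point below 0 (−0.14).

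The choice of test moved the number of called enzyme genes in ULU vs control. DESeq2, fitted on the libraries of the 2 diets, called 5 of the 10 (ALDOA, PFKM, PKM, GPI and PYGM) and 7.79% of the genes to which it gave an adjusted p, whereas edgeR on the same 11 libraries called 0 of the 10 and 0.821% of all genes, with 8 of the 10 at an unadjusted p below 0.05. In each of the 22 alternative fits, the log2 fold change was above 0 for all 10 genes in ULU vs control. These fits share libraries and are not independent of each other.

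UL vs control asks about the alga on its own. None of the 10 enzyme genes differed between these diets with an adjusted p below 0.05 in edgeR, where 0% of the 14203 genes were called. At an unadjusted p below 0.05 the count was 0 of 10, against 10.8% of all genes in either direction and 5.84% higher. DESeq2 called 0 of 10, and 1.53% of the genes to which it gave an adjusted p. The log2 fold change was above 0 for 9 of the 10 genes and for 49.5% of all genes. The medians were 0.16 for the enzyme genes and −0.00 for all genes. These directions depended on single libraries: without control piglet 22, 6 of the 10 were above 0 with a median of 0.08, and without control piglet 26 or UL piglet 28, 8 were. ALDOA had the largest difference (log2 fold change 0.41, SE 0.23, edgeR adjusted p = 0.554), followed by PGAM2 (0.36, SE 0.23, edgeR adjusted p = 0.607). For both, 3 of 6 UL piglets lay above the highest control. ENO3 had 0.28 (SE 0.22, edgeR adjusted p = 0.696), with 2 of 6 UL piglets above the control range. PYGM had 0.21 (SE 0.16, edgeR adjusted p = 0.689) and GPI 0.18 (SE 0.17, edgeR adjusted p = 0.751). All 6 UL piglets were above the control median for GPI and for TPI1, whose log2 fold change was 0.11 (SE 0.18, edgeR adjusted p = 0.876). PFKM had 0.15 (SE 0.18, edgeR adjusted p = 0.813), PKM 0.08 (SE 0.16, edgeR adjusted p = 0.894) and FBP2 0.07 (SE 0.19, edgeR adjusted p = 0.933). Without 1 library, PKM ranged from −0.001 to 0.13, TPI1 from −0.0004 to 0.24 and FBP2 from −0.03 to 0.17. In the same fits PFKM ranged from 0.07 to 0.22, GPI from 0.10 to 0.27 and ENO3 from 0.17 to 0.38. LDHA was the gene with a value below 0, at −0.14 (SE 0.18, edgeR adjusted p = 0.825), and 5 of 6 UL piglets lay below the control median; without control piglet 21 it was −0.03. Each of the 10 genes had overlapping ranges in UL and control, while 0.493% of all genes separated these diets upward and 0.359% downward. The spread among piglets was narrower in UL than in control for 9 of the 10 genes, for example a coefficient of variation of 9.14% against 21.5% for PFKM and of 11.9% against 27.5% for LDHA, with ALDOA the exception; these spreads were not tested.

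ULU vs UL asks what the lyase adds to the alga. In edgeR, 0 of the 10 enzyme genes and 0.0352% of all genes (0.00704% higher, 0.0282% lower) had an adjusted p below 0.05, and 0.0141% of all genes were DEGs. At an unadjusted p below 0.05, 5 of the 10 (LDHA, PFKM, PKM, GPI and PYGM) differed, all higher in ULU, against 10.8% of all genes in either direction and 6.16% higher. DESeq2 on these 11 libraries called the same 5 genes and 5.52% of the genes to which it gave an adjusted p. It gave none to 1 of the 10 enzyme genes, ALDOA. All 10 genes had a log2 fold change above 0, against 47.0% of all genes, and the medians were 0.45 for the enzyme genes and −0.02 for all genes. PFKM had the largest difference, with a log2 fold change of 0.61 (SE 0.18, edgeR adjusted p = 0.252). PYGM followed with 0.55 (SE 0.17, edgeR adjusted p = 0.252), LDHA with 0.52 (SE 0.19, edgeR adjusted p = 0.323) and GPI with 0.52 (SE 0.18, edgeR adjusted p = 0.288). PKM had 0.51 (SE 0.16, edgeR adjusted p = 0.270). For LDHA, PFKM, PKM and PYGM, 4 of 5 ULU piglets were above the highest UL piglet, and for GPI 3 of 5 were. The other 5 genes ranged from 0.29 for PGAM2 to 0.38 for TPI1, with edgeR adjusted p-values from 0.486 to 0.739. Without ULU piglet 43 all 10 stayed above 0, but the median of the enzyme genes fell to 0.31 and 4 had an unadjusted p below 0.05. Without it PFKM had 0.38, PYGM 0.38, LDHA 0.37, GPI 0.33, ENO3 0.20, ALDOA 0.20, FBP2 0.19 and PGAM2 0.12. The 10.8% of all genes given above is from the fit of all 17 libraries, so the count of 4 has no share of its own beside it. No gene of the 10 separated the diets without overlap, as 1.09% of all genes did upward. The 3 comparisons share libraries, so their values are given side by side and are not independent of each other.

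The spread of these genes among the piglets of a diet depended on the gene and the diet. The highest level was between 1.68-fold (PYGM) and 2.42-fold (TPI1) the lowest in control, between 1.33-fold (PFKM) and 1.98-fold (ALDOA) in UL and between 1.46-fold (FBP2) and 2.46-fold (ALDOA) in ULU. Over all 17 libraries, diets included, it was between 2.57-fold (FBP2) and 3.83-fold (PFKM), and without ULU piglet 43 between 2.07-fold (LDHA) and 3.08-fold (ALDOA), with PFKM at 2.20-fold. After the diet means had been subtracted from log2 CPM, all 45 pairs among the 10 genes had a positive Pearson's r over the 17 libraries, from 0.362 to 0.975 with a median of 0.755. Of these 45 relations, 44 had an adjusted permutation p below 0.05, by Pearson's r as well as by Spearman's rho. The lowest r among the 44 was 0.532, which 97.8% of the 45 pairs reached. Beside this, a count added after seeing the data gives 5.19% of all pairs among 6280 genes with a mean of at least 10 CPM (median r 0.0154) and 18.3% of pairs among the 300 genes with a mean CPM no lower than that of FBP2 (median r 0.230). All genes of a library share its scaling, which can add to each r. The median r fell to 0.651 when the 2 libraries farthest from the median of the first gene were left out.

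ENO3 and PGAM2, which encode successive steps, had the highest Pearson's r, 0.975 (permutation p = 1e-05, adjusted p = 0.000112). Spearman's rho of this pair was 0.951 (permutation p = 1e-05, adjusted p = 0.000150), where 1e-05 is the smallest p the permutations can give. Their r was 0.976 without the 2 farthest libraries. LDHA and PKM, also successive steps, had r = 0.935 (permutation p = 1e-05, adjusted p = 0.000112) and rho = 0.953 (permutation p = 1e-05, adjusted p = 0.000150), and r = 0.911 without the 2 farthest libraries. Both relations thus held without those libraries. PYGM and GPI had r = 0.855 (permutation p = 2e-05, adjusted p = 0.000112) and rho = 0.824 (permutation p = 3e-05, adjusted p = 0.000193), and r = 0.828 without ULU piglet 43 and control piglet 24. PFKM and GPI had r = 0.728 (permutation p = 0.00102, adjusted p = 0.00164) and rho = 0.684 (permutation p = 0.00318, adjusted p = 0.00410). Without ULU piglet 43 and control piglet 22 that r was 0.425, so the relation between PFKM and GPI rests largely on those libraries. ALDOA and TPI1 had the lowest value, r = 0.362 (permutation p = 0.152, adjusted p = 0.152) and rho = 0.358 (permutation p = 0.159, adjusted p = 0.159), and r = 0.160 without the 2 farthest libraries. With the mean of the other 9 genes, the r of a gene ranged from 0.754 for TPI1 to 0.932 for LDHA.

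**Figure D3:**
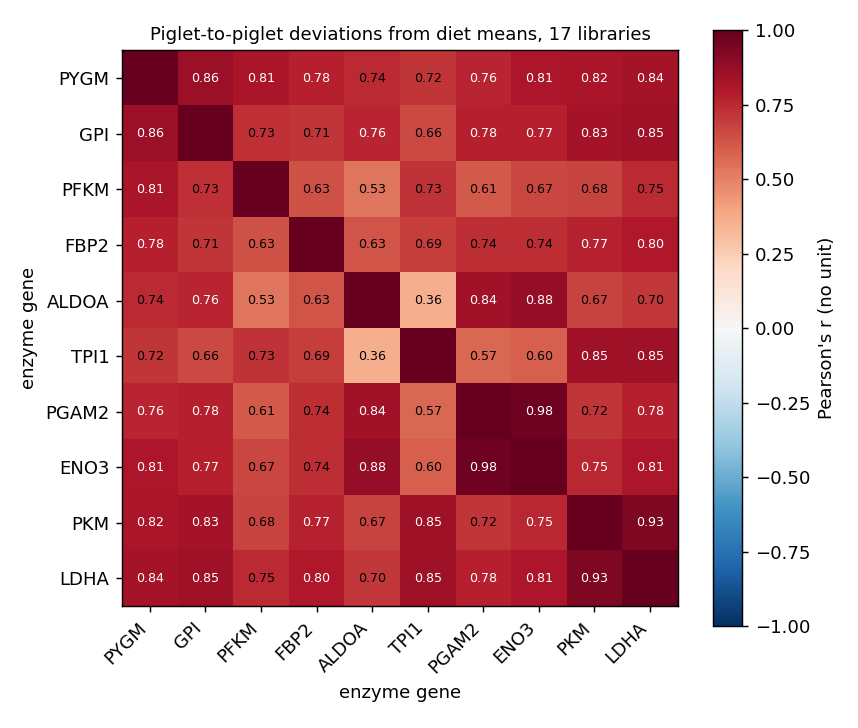
Pearson's r between the enzyme genes over 17 libraries, computed on deviations of log2 CPM from the mean of each diet; colours run from −1 to 1 and genes are in pathway order on both axes. ENO3 with PGAM2 (0.975) is the darkest cell off the diagonal and ALDOA with TPI1 (0.362) the palest.

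The genes whose piglet-to-piglet deviations were most like the mean of the 10 were sought among 6270 genes with a mean of at least 10 CPM, over 17 libraries and as a description. PGK1, phosphoglycerate kinase and itself a glycolytic enzyme, came first (r = 0.943). It was followed by TMOD4, a tropomodulin of muscle thin filaments (r = 0.921), the unnamed ENSSSCG00000004814 (r = 0.916), VDAC1, a pore of the outer mitochondrial membrane (r = 0.916), and AK1, adenylate kinase of the cytosol (r = 0.912). HK2, the muscle hexokinase, had rank 1119 (r = 0.464).

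Muscle forms were more abundant than the other genes of the same steps, here per kb of unshared exon. ENO3 exceeded ENO1 by a median of 56.0-fold in control, 56.9-fold in UL and 73.8-fold in ULU by their full exon lengths. PGAM2 had a mean of 1467 CPM per kb, against 14.3 for PGAM1, of which 69.5% of the exonic bases are shared with EXOSC1. PYGM had a mean of 1243 CPM per kb, against 2.15 for PYGL, the liver form, and 0.138 for PYGB, the brain form. PFKM at 379 CPM per kb stood against 2.02 for PFKL and 0.974 for PFKP, and FBP2 at 199.9 CPM per kb against 0.411 for FBP1.

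The symbol LDHB belongs to a single-exon gene on chromosome 2 in the name table, and RefSeq places a further LDHB on chromosome 5. There the count table has an unnamed gene with several exons, ENSSSCG00000000576, whose use was chosen after seeing the data. It had a mean of 149.9 CPM per kb, and the median ratio of LDHA to it was 29.4 in control, 26.6 in UL and 37.3 in ULU. Between ULU and control it had a log2 fold change of −0.00 (SE 0.15, edgeR adjusted p = 0.994). The single-exon gene, with 13 to 97 reads per library, is not read as LDHB.

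**Figure D4:**
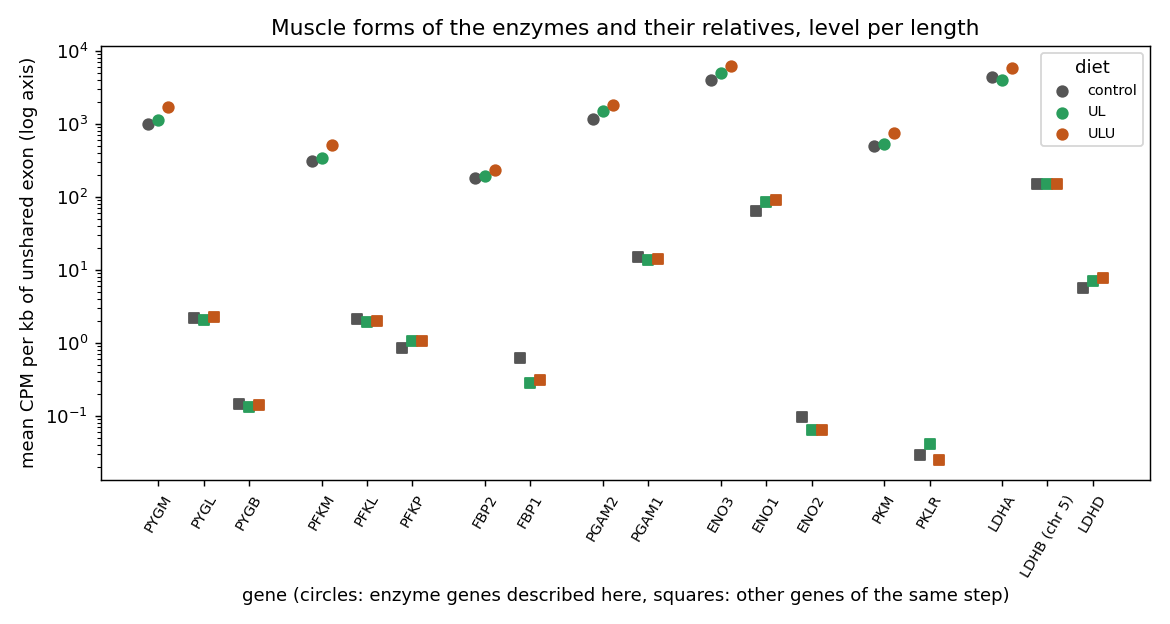
Mean level per kb of unshared exon in each diet (CPM per kb, log axis) for 7 of the enzyme genes (circles) and other genes of the same steps (squares). In each set the enzyme gene described here is the highest, with LDHA at 4626 and LDHB on chromosome 5 at 149.9 CPM per kb over all 17 libraries.

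Ratios within a piglet do not depend on library scaling, and 5 of them were compared between diets with two-sided exact permutation tests, 15 comparisons in all. The ratio of LDHA to the single-exon gene was 1 of the 5 and is not read here. After Benjamini-Hochberg adjustment over the 15, 0 had a p below 0.05, and without adjustment 1 had. This was the ratio of PYGM to GYS1, the muscle glycogen synthase, which was 0.29 higher in ULU than in control on the log2 scale (exact permutation p = 0.0476, adjusted p = 0.487). Its range was 11.3-fold to 15.98-fold in control, 10.3-fold to 18.4-fold in UL and 14.1-fold to 21.1-fold in ULU, so that the diets overlapped. FBP2 to PFKM, the pair of opposed reactions, had, by full exon lengths, a control median of 0.701, a UL median of 0.698 and a ULU median of 0.553. Its difference between ULU and control was −0.32 on the log2 scale (exact permutation p = 0.0887, adjusted p = 0.487). PGAM2 to PGAM1 differed by 0.72 (exact permutation p = 0.106, adjusted p = 0.487) and ENO3 to ENO1 by 0.13 (exact permutation p = 0.515, adjusted p = 0.8001), the latter from 0.05 to 0.25 without 1 library. With the gene on chromosome 5 in its place, LDHA to LDHB was 0.43 higher in ULU than in control (exact permutation p = 0.245, adjusted p = 0.459), and 0.18 higher without ULU piglet 43. In that set too, 0 of 15 had an adjusted p below 0.05 and 1 an unadjusted p below 0.05.

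The steps that the 10 genes leave out were measured in the same libraries. HK2, which phosphorylates glucose, had a median of 15.3 CPM in control and 14.2 CPM in ULU, with a log2 fold change of 0.26 (SE 0.36, edgeR adjusted p = 0.734) that turned to −0.29 without ULU piglet 43. GAPDH had medians of 479 and 652 CPM and a log2 fold change of 0.44 (SE 0.25, edgeR adjusted p = 0.3504), but 94.9% of its exonic bases are shared with an unnamed gene on the opposite strand. PGK1 had medians of 2909 and 3427 CPM and a log2 fold change of 0.38 (SE 0.19, edgeR adjusted p = 0.272). Beside PYGM, the phosphorylase kinase subunits PHKA1 and PHKG1, whose exons are partly shared with other genes, had 0.35 (SE 0.19, edgeR adjusted p = 0.326) and −0.22 (SE 0.25, edgeR adjusted p = 0.679). SLC16A3, a lactate exporter, had 0.12 (SE 0.41, edgeR adjusted p = 0.903). Without ULU piglet 43, GAPDH had 0.22, PGK1 0.22, PHKA1 0.15 and SLC16A3 0.02. PHKG1 had 0.05 without control piglet 21, and SLC16A3 fell to −0.02 without control piglet 22 and −0.04 without control piglet 26.

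The lists below are read beside the 2.98% of all genes called in ULU vs control, 1.99% higher and 0.993% lower. Of 15 other glycolysis genes tested, 1 rose and 0 fell, and the median log2 fold change was 0.26 with either gene taken as LDHB. The riser was ENO1, the widely expressed enolase, by 0.50 (SE 0.12, edgeR adjusted p = 0.0391). Of 18 other glycogen genes, 2 rose and 0 fell (median 0.15): GYS1 by 0.45 (SE 0.10, edgeR adjusted p = 0.0241) and PPP1R3B, which targets a phosphatase to glycogen, by 0.69 (SE 0.18, edgeR adjusted p = 0.0479). GYS1, which builds glycogen, thus rose in the same diet as PYGM, which breaks it down. Of 14 genes of control steps and reverse reactions, 0 rose and 1 fell (median 0.15). This was PDK4, a kinase that switches off pyruvate dehydrogenase, which ranged from 5.09 to 38.9 CPM in control and from 3.42 to 7.15 CPM in ULU (log2 fold change −1.67, SE 0.40, edgeR adjusted p = 0.0336). Of 15 genes of pyruvate and lactate handling, 2 rose and 0 fell (median 0.27): DLAT, a pyruvate dehydrogenase subunit, by 0.60 (SE 0.13, edgeR adjusted p = 0.0177) and BSG, a partner of lactate carriers, by 0.41 (SE 0.11, edgeR adjusted p = 0.0473). Among the regulators, the muscle transcription factor MYOD1 rose by 0.86 (SE 0.19, edgeR adjusted p = 0.0258).

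Fibre type genes were counted in the same comparison. Of 11 fast fibre genes, 5 rose and 0 fell (median log2 fold change 0.48): ACTN3, MYBPC2, TNNT3, ATP2A1 and MYH2, the last from a gene model that also covers the positions of MYH1 and MYH4. Of 12 slow fibre genes, 2 rose and 0 fell (median 0.68): TNNT1, by 1.30 (SE 0.27, edgeR adjusted p = 0.0178), and TNNI1, by 0.92 (SE 0.23, edgeR adjusted p = 0.0406). MYL11, the most abundant fast fibre gene per kb, had a log2 fold change of 0.14 (SE 0.20, edgeR adjusted p = 0.744), from 0.06 to 0.27 without 1 library. Genes of both fibre types were therefore called higher in the same comparison as PYGM, PFKM and GPI. Of the 15 called genes in these 7 lists, 4 were called without ULU piglet 43 (MYBPC2, ACTN3, TNNT1 and TNNI1), 5 without ULU piglet 40, 6 without control piglet 22, 7 without ULU piglet 41 and 8 without control piglets 23, 24 or 26 or ULU piglet 44. MYBPC2 and ACTN3 were called in all 17 fits that left out 1 library, which include those without a UL piglet. By edgeR on the libraries of 2 diets, 2 of the 15 were called (PPP1R3B and MYBPC2), and the others had adjusted p-values from 0.0526 to 0.108, among them DLAT (0.0542), GYS1 (0.0627), BSG (0.0801), ENO1 (0.0802) and PDK4 (0.0808). Without the filter on low counts 9 of the 15 were called. DESeq2 called all 15 and also GPD1, LDHD, TPM3 and ACTN2, which makes 19 of the 96 genes tested. It called 7.79% of the genes to which it gave an adjusted p. In UL vs control, 0 of the 96 tested genes of these 7 lists were called by edgeR (0% of all genes). At an unadjusted p below 0.05 there were 24 (10.8% of all genes). DESeq2 called 2 of the 96 (MYOD1 and TNNT1), and 1.53% of the genes to which it gave an adjusted p. In ULU vs UL, the counts were 0, 22 and 6 of 96. Beside these stand 0.0352% of all genes called by edgeR and 10.8% at an unadjusted p below 0.05. DESeq2 called 5.52% of the genes to which it gave an adjusted p.

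**Figure D5:**
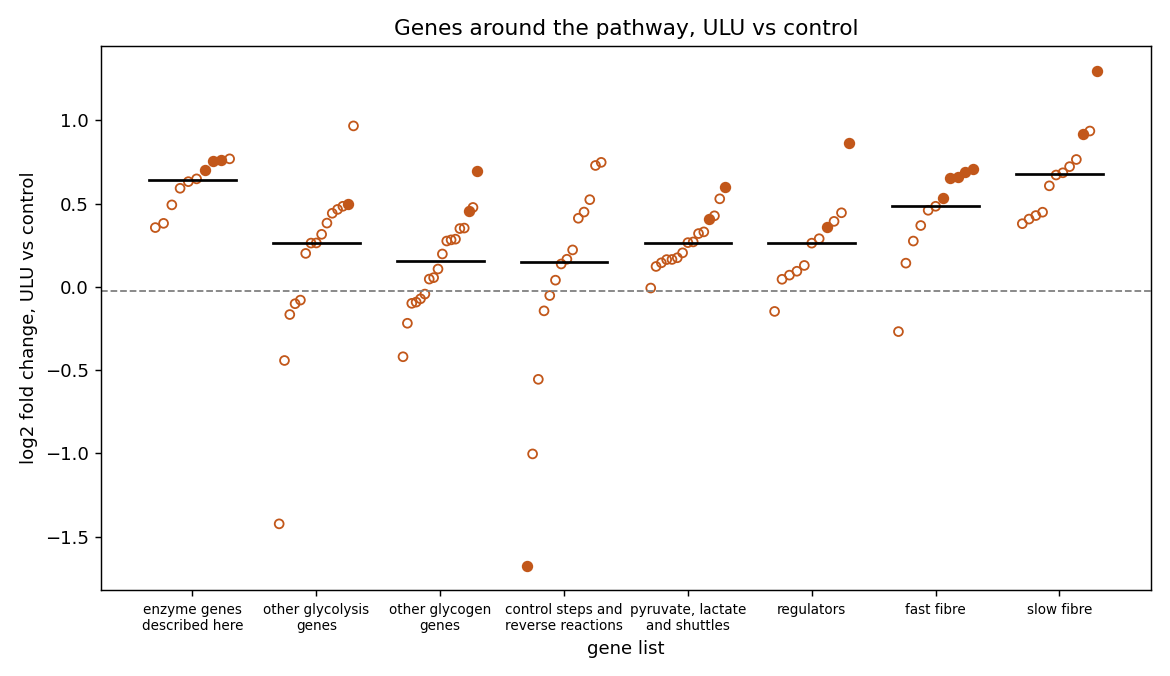
Log2 fold change of ULU vs control for the 10 enzyme genes and the genes of 7 other lists, with 1 point per gene. Filled points have an edgeR adjusted p below 0.05, black lines are the median of each list and the dashed line is the median of all 14203 genes (−0.03); the enzyme genes, with a median of 0.64, all lie above 0.

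Measures of the libraries and markers of other cell types were read in the same libraries, and the summed levels of markers are given without a test. The share of counts from the mitochondrial chromosome was 14.05% to 15.9% in control, 8.64% to 14.8% in UL and 8.002% to 11.6% in ULU. It fell in ULU relative to control (exact permutation p = 0.00216, the smallest that 6 against 5 libraries allow, adjusted p = 0.0130) and in UL relative to control (exact permutation p = 0.0108, adjusted p = 0.0325). Total counts had an exact permutation p of 0.0844 between ULU and control (adjusted p = 0.159). The summed level of 6 skeletal muscle markers had medians of 159864 CPM in control, 188018 CPM in UL and 219265 CPM in ULU, and its highest value was 306883 CPM in ULU piglet 43. Of 6 fibroblast markers, all were detected, with COL3A1 the most abundant and summed medians of 6668, 5381 and 5106 CPM in control, UL and ULU. The 7 adipocyte markers, led by FABP4, summed to medians of 343, 259.8 and 236 CPM. The 7 leukocyte markers, led by CD68, summed to 79.1, 52.6 and 30.5 CPM; all 2273 exonic bases of LYZ, one of them, are shared with CPSF6, so its row could hold no reads. For 4 endothelial markers, led by PECAM1, the medians were 132, 137 and 124 CPM, and for 5 erythroid markers, led by HBB, 44.7, 67.1 and 62.2 CPM. The part of the mitochondrial share, of the muscle markers and of these other cell types in the levels of the 10 enzyme genes was not tested.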

How the data were processed

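RNA of the longissimus muscle of 17 piglets was sequenced as 75 nt single reads, 1 library per piglet. According to the submitters' processing notes and the header of the counts, the authors used FastQC, fastp, HISAT2 and featureCounts (2.0.1 in the header) with the Ensembl annotation of Sscrofa11.1, and deposited the raw count of reads per gene. The header sets no option on strand, multiple placements or overlapping genes, so reads on shared exons were not counted and strands were not separated. The authors also deposited a score per gene, their mean over the 17 count columns, which was used here only to check those columns. All 17 count columns were used, and libraries held 16137365 to 26546810 counted reads.

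Genes were named from a table that pairs Ensembl identifiers with symbols, which named 15029 of 31908 genes. Of 158 listed symbols, 140 were found in it or in the deposited names, 6 were named by a RefSeq gene of the same assembly at the same position, and 12 were not matched. Tests used edgeR 4.0.16 in R 4.3.3: TMM scaling, the filter of edgeR on low counts (which kept 14203 genes) and a quasi-likelihood F test, in 1 model of all 17 libraries with a coefficient per diet. P-values were adjusted over all 14203 genes by Benjamini and Hochberg, and a DEG also needed an absolute log2 fold change of 1 or more. The SE is the absolute log2 fold change divided by the square root of F. CPM per kb divides CPM by the summed exon length of a gene or, where said, by the exonic bases that no other gene shares, and log2 CPM used a prior count of 2. Exact permutation tests, two-sided, compared ratios and library measures, and 100000 permutations served each correlation, in Python 3.11.15 with scipy 1.17.1, numpy 2.4.6 and pandas 2.3.3. Counts rest on sampling of reads, and at fewer than 100 reads per library counting error is large.

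The genes given by name are the 10 enzyme genes, fixed steps that these leave out, genes of the listed pathways with an adjusted p below 0.05 or the largest log2 fold changes, and the 3 most abundant and all called fibre type genes. To these come the 5 genes with the highest r with the mean standardized deviation of the 10. Not every gene that the rule allows is named, and some listed genes that enter the counts over lists are not reported here by name. The 10 genes and the lists were chosen with earlier results of these data known. Alternatives were DESeq2 1.42.0 on 2 diets, DESeq2 size factors in edgeR, no filter on low counts, edgeR on 2 diets, no genes of the mitochondrial chromosome and leaving out each library. The length of unshared exon and the chromosome 5 gene for LDHB were added after seeing the data. The fits across genes were tested on simulated data with known changes. Promoter motifs were planned but no promoter sequences were used here.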

Additional observations from a re-analysis of the deposited data

Results flagged for a closer look

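In 51 groups of values, each 1 measure in the 5 or 6 piglets of a diet, 4 held a value far from the others by Dixon's ratio of gap to range; chance gives about 1 in 20 groups. ULU piglet 43 had the highest PFKM, 4239 CPM, with the nearest ULU piglet at 2429 CPM, and the highest GPI, 4102 CPM, with the nearest at 2567 CPM. UL piglet 31 had the highest GPI of its diet, 2349.7 CPM, with the nearest UL piglet at 1935 CPM. Control piglet 25 had a total of 23433672 counted reads, against 17773850 in the next control library. The causes of these values were not tested. The fold changes of PFKM and GPI without ULU piglet 43 are given with those genes.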

How the results depend on the processing

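The number of called genes moved with the test and with single libraries, and the cause was not tested. In UL vs control, 0 genes were called, DESeq2 called 149, and leaving out 1 library gave 0 to 16. In ULU vs control, 423 genes were called, against 822 by DESeq2, 228 without the filter on low counts, 111 by edgeR on 2 diets and 147 to 799 without 1 library. In ULU vs UL, 5 were called, against 244 by DESeq2, 8 without the filter, 1 by edgeR on 2 diets and 1 to 7 without 1 library. DEGs numbered 0 in UL vs control, 11 by DESeq2 and 0 to 2 without 1 library. In ULU vs control there were 59, against 71 by DESeq2, 27 by edgeR on 2 diets and 30 to 121 without 1 library. In ULU vs UL there were 2, against 4 by DESeq2, 1 by edgeR on 2 diets and 1 to 3 without 1 library.

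Of the 10 enzyme genes, 3 were called in ULU vs control, 5 by DESeq2, 0 by edgeR on 2 diets (8 at an unadjusted p below 0.05) and 0 to 5 without 1 library. By library left out, the count was 0 without ULU piglet 43 (1.02% of all genes called) or control piglet 23 (1.16%). It was 1 without control piglets 22 (1.09%) or 26 (1.49%) or ULU piglet 40 (1.18%). The count was 2 without control piglet 24 (1.54%) or ULU piglet 41 (1.29%), 4 without control piglet 25 (5.67%) and 5 without ULU piglet 42 (2.73%). In ULU vs UL, 0 were called by edgeR and 5 by DESeq2, which gave no adjusted p to 1 of the 10. In all 22 alternatives, which share libraries, the log2 fold change of each of the 10 genes was above 0 in ULU vs control and in ULU vs UL.

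Ratios within a piglet gave 0 of 15 adjusted p-values below 0.05 with all libraries and without any 1 of them, and 0 of 15 with LDHB taken from chromosome 5, an alternative chosen after seeing the data. With DESeq2 size factors, 44 of 45 pairs of enzyme genes had an adjusted p below 0.05, as with TMM. No called fold change of a named gene turned its direction. Per kb of unshared exon, also chosen after seeing the data, the mean levels of ALDOA, TPI1 and GPI moved by more than the SD over libraries, to 19.9, 2256 and 1018 CPM per kb. Depth limits ALDOA, with 132 to 460 reads per library.

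No paired analysis was possible because the diets share no replicate numbers.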
